A study of Mus musculus with 3 samples.

Results

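The proteasome genes of mouse liver are described here across a sham-operated sample, a warm ischemia (WI) sample and an ischemia followed by reperfusion (IR) sample. Members were taken by symbol, as every gene named Psma, Psmb, Psmc, Psmd or Psme followed by a number, with an FPKM (fragments normalised to transcript length and to the mapped fragments of the library) of at least 1 in at least 1 sample. The rule matched 43 symbols among the 23361 genes in the files, and 41 of them passed the limit, out of 10792 genes that did so in all. The 2 that did not pass were Psma8, a testis subunit, at an FPKM of 0.585 in sham, 0.585 in WI and 0.928 in IR, and Psmb11, the thymus subunit, which was listed at 0 in all 3 samples. The lowest member inside the limit was Psmd10, at 6.76, 7.22 and 6.93 in the same order, so no other member lay near it.

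All 3 samples were labelled as liver of male C57BL/6J mice 8 to 10 weeks old, with no genetic change. All mice were anesthetised and had a midline laparotomy. The sham group had no clamp and was sampled after 90 min, the WI group had the vessels to the left and median lobes clamped for 90 min and was sampled at the end of that time, and the IR group had the same 90 min of clamping followed by 2 h of reperfusion. The sham sample was therefore matched in time to the WI sample and not to the IR sample. The study had 6 mice per group, and whether a library held RNA of 1 mouse or of several was not stated. With 1 library per condition there was no replicate and no test between conditions, so each difference below is a difference between 2 libraries. The 95% bounds printed with some values are those Cuffdiff gave, which cover counting and model error and not variation between mice.

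The libraries went against their labels in one respect. Xist, the RNA of the inactive X chromosome, had an FPKM of 18.9 in sham, 20.1 in WI and 1.29 in IR, and the Y-linked genes Ddx3y and Eif2s3y were at 0 and 0 in sham, 0.00849 and 0 in WI, and 8.58 and 13.2 in IR. The sham and WI libraries thus did not match the male label, and in every comparison with the IR sample this difference cannot be told apart from reperfusion. Liver identity was checked with hepatocyte markers. The summed FPKM of the 5 with a usable estimate (Apoa1, Ttr, Cps1, Hnf4a and Cyp2e1) was 17587, 13482 and 18516 in sham, WI and IR. Alb was listed at 0 in all 3 with the status HIDATA in place of OK, so its 0 is not a measured level. A status other than OK stood at 113 genes in sham, 114 in WI and 119 in IR. The sum of all FPKM as listed, which leaves out Alb, was 475754 in sham, 487912 in WI and 712423 in IR. Dividing each library to a common sum (as in TPM) therefore divides the IR values by 1.497, or 0.58 on the log2 scale, and moves the median change of all genes tested in IR against WI from 0.03 to -0.40. The share of all genes tested that are higher in IR than in WI then falls from 52.4% to 17.5%. For this reason changes in IR are also given relative to the median of all genes tested. Under a median-ratio scaling the divisors were only 1.02 for WI and 1.05 for IR.

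The proteasome is the protease that degrades proteins tagged with ubiquitin. Its 20S core is a stack of outer alpha rings, which gate the entry, and inner beta rings, in which 3 subunits carry the catalytic sites: Psmb6 the caspase-like, Psmb7 the trypsin-like and Psmb5 the chymotrypsin-like site. Interferon gamma induces Psmb9, Psmb10 and Psmb8, which take the places of Psmb6, Psmb7 and Psmb5 in newly built particles and form the immunoproteasome, and it also induces Psme1 and Psme2, the subunits of the PA28 activator. The 19S regulatory particle, made of Psmc ATPases and Psmd non-ATPases, binds ubiquitin chains, removes them and unfolds the substrate. The transcription factors Nfe2l1 and Nfe2l2 act on the constitutive genes through antioxidant response elements, while Irf1 acts on the induced ones. Blood-derived cells carry much of the immunoproteasome of a tissue, and hepatocytes carry mostly the constitutive form.

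To show the 2 kinds of gene that are contrasted below, the 130 bases before the transcription start are printed for Psmb5 and Psmb6, 2 constitutive catalytic genes, and for the 3 induced ones (RefSeq, GRCm38.p6, the build of the files). Sequences run 5′ to 3′ on the strand of the gene, and positions count back from -1, the last base before the start. Psmb5 lies at chr14:54617996-54618125 on the minus strand, Psmb6 at chr11:70525227-70525356 on the plus strand, Psmb8 at chr17:34198065-34198194 on the plus strand, Psmb9 at chr17:34187331-34187460 on the minus strand and Psmb10 at chr8:105938393-105938522 on the minus strand. Capitals mark a match to the core of an antioxidant response element (TGACNNNGC) in Psmb5 and Psmb6, starting at -47 and -9, and a match to the core of an interferon gamma-activated (GAS) element (TTCNNNGAA) in Psmb8, starting at -97. No capitals stand in Psmb9 and Psmb10, whose stretches held neither of these letters nor the core of an interferon-stimulated element (GAAANNGAA) or of a heat shock element (GAANNTTC). Matches to the CCAAT box, such as one in Psmb9, were left in lower case.
Psmb5: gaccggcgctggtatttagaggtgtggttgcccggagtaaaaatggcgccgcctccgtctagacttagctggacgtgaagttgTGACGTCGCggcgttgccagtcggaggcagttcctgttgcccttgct
Psmb6: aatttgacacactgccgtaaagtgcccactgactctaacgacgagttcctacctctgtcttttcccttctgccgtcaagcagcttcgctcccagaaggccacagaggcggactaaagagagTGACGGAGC
Psmb8: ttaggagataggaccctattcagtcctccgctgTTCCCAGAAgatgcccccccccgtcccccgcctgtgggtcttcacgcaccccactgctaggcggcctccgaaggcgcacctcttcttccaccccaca
Psmb9: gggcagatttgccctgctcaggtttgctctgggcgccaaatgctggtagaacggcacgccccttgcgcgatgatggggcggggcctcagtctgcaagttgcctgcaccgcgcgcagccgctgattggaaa
Psmb10: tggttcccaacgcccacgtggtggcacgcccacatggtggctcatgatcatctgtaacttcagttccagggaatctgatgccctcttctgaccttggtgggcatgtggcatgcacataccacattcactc

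Over the whole window of 250 bases before to 50 after the start, 35 of the 41 members had a sequence (Psmb1, Psmb2, Psmb7, Psmc3, Psmd3 and Psmd7 had none). Both strands were searched. The antioxidant response core was found in 6 of the 35 (Psmb5, Psmb6, Psmc6, Psmd12, Psmd9 and Psme4), or 17.1%, against 17.3% of the 8093 genes tested that had a window. The GAS core was found in Psmb8 and Psmd2, or 5.71%, against 8.46%. The interferon-stimulated core stood in 6 members, or 17.1%, against 8.95%, and among the 5 immunoproteasome genes it stood in Psme1 only. The heat shock core stood in Psmb5 and Psmb9, or 5.71% against 7.35%, and the CCAAT box (CCAAT) in 37.1% against 43%. Over all 32851 windows of the table the shares were 12.4%, 8.3%, 8.56%, 7.86% and 37.4% for these 5 motifs in the order given. A match is a description of the letters and not evidence of binding.

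The libraries were first compared by the order of their levels. Of the 31 constitutive structural subunits (7 alpha, 7 beta, 6 ATPases and 11 non-ATPases), 30 had their lowest FPKM in sham, the next in WI and the highest in IR, an order held by 25.6% of all genes tested. The exception was Psmd6, which was lowest in WI. The 5 immunoproteasome genes (Psmb8, Psmb9, Psmb10, Psme1 and Psme2) all had their highest FPKM in WI, as did 27.0% of all genes tested. The order of the constitutive subunits depends on the scaling. Divided to a common sum, 5 of 31 kept sham below WI below IR, 24 were highest in WI and 2 were lowest in IR with WI between. Among all genes tested these orders were then held by 5.49%, 42.4% and 40.0%. Under the median ratio 28 of 31 kept the deposited order, beside 21.9% of all genes tested. The WI sample stayed the highest for all 5 immunoproteasome genes under both scalings. The share of all genes tested that were highest in WI was 42.4% on a common sum and 26.8% under the median ratio. Together the 41 members made up 0.429% of the summed FPKM as listed in sham, 0.492% in WI and 0.409% in IR.

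**Figure D1:**
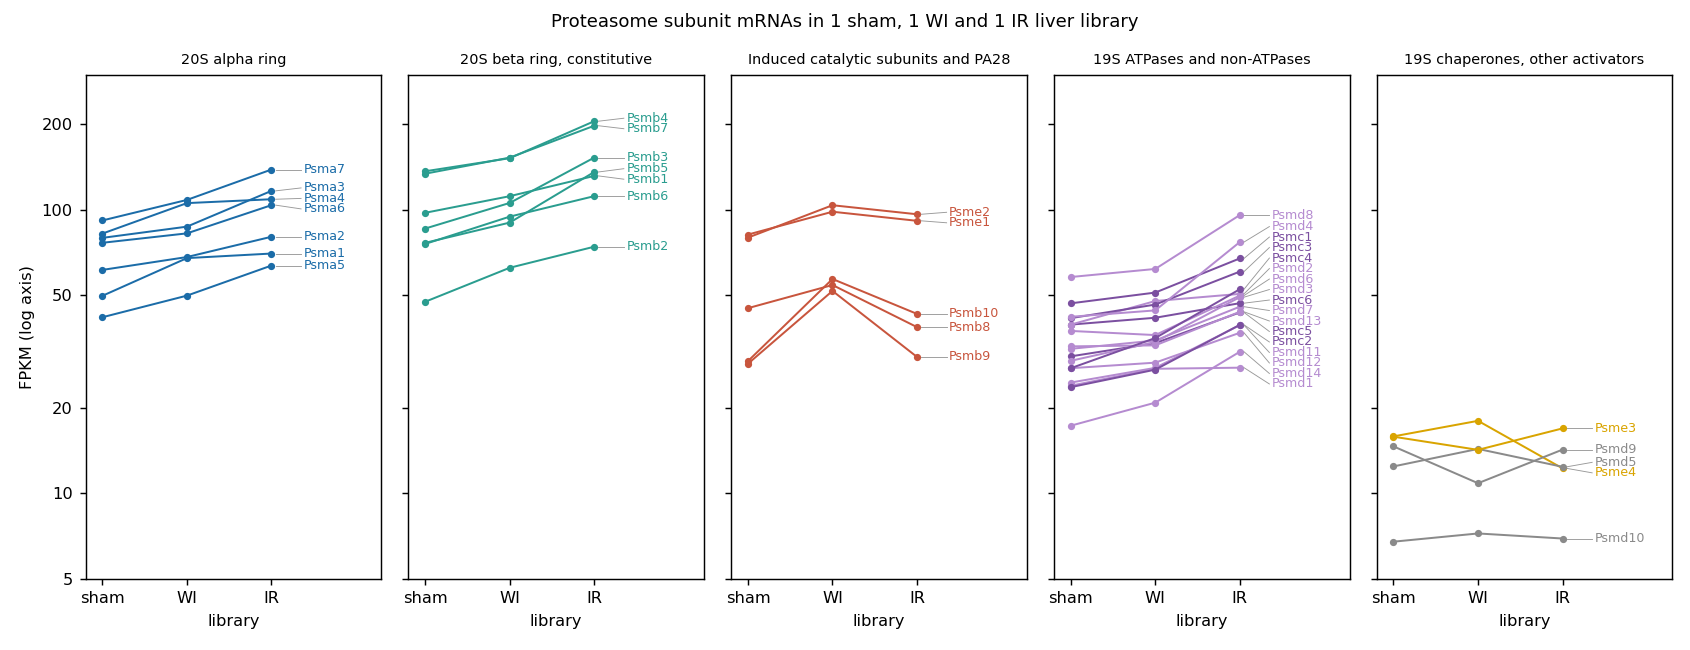
FPKM of the 41 members (log axis) in the sham, WI and IR libraries, 1 point per library and 1 line per gene, in 5 panels by role. Of the 31 constitutive structural subunits (alpha, beta and 19S panels) 30 run upward from sham to IR, an order that 5 keep when libraries are divided to a common sum, and the 5 induced and PA28 genes peak in the WI library under every scaling. Of all genes tested, 25.6% run upward as deposited and 5.49% on a common sum, and 27.0% and 42.4% peak in WI.

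The alpha ring genes build the gated outer ring of the 20S core, and all 7 were higher in the WI than in sham and higher again in IR as deposited. Their FPKM ran from 41.8 (Psma5) to 91.7 (Psma7) in sham, from 49.8 to 108 in WI and from 63.6 to 139 in IR, with the same 2 genes at the ends. The spread across the ring stayed narrow, with the highest gene 2.19, 2.18 and 2.18 times the lowest. Psma1 showed the largest WI difference, at 49.8, 67.6 and 70.1 in sham, WI and IR (log2 change of FPKM + 1 of 0.43 in WI against sham), and Psma6 the smallest, at 76.5, 82.6 and 104 (0.11). Psma3 led between the WI and IR samples, at 79.6, 87.2 and 117 (0.42), and Psma4 was last, at 82.5, 106 and 109 (0.04). Psma1 and Psma4 thus had most of their difference between sham and WI, and Psma3 between WI and IR. Between the IR and sham samples Psma5 led, at 41.8, 49.8 and 63.6 (0.59), and Psma2 was last, at 61.4, 68.2 and 80.4 (0.38). The median log2 change of the ring was 0.24 in WI against sham, beside 0.02 for all genes tested. Between WI and IR it was 0.33, beside 0.03 for all genes, and it turned to -0.21, beside -0.40, when the libraries were divided to a common sum. The alpha ring was therefore 0.30 above the median gene as deposited and 0.18 above it on the common sum.

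The constitutive beta ring genes were likewise higher in WI than in sham and higher in IR than in WI for 7 of 7 as deposited, although in IR against WI only Psmb5 stayed higher on a common sum. Among the catalytic subunits, Psmb5 had an FPKM of 76.5 (bounds 41.0 to 112) in sham, 90.2 (48.0 to 132) in WI and 136 (71.1 to 201) in IR. Psmb6 stood at 75.8, 94.6 and 112 in the same order, and Psmb7 at 134, 153 and 198. The bounds of each of these genes overlapped between all pairs of libraries. Of the non-catalytic subunits, Psmb2 had the largest difference of the ring in WI against sham, with 47.4, 62.5 and 74.1 (log2 change 0.39), and Psmb4 the smallest, with 137, 152 and 205 (0.15). Psmb3 led in IR against sham, with 85.9, 106 and 153 (0.82), and Psmb1 was last, with 97.6, 112 and 132 (0.43). Psmb5 led in IR against WI, with a log2 change of 0.59, or 0.05 on a common sum. The ring's median log2 change was 0.23 in WI against sham, 0.37 in IR against WI and 0.58 in IR against sham, and on a common sum the last 2 became -0.17 and 0.004. Relative to the median of all genes tested, these were 0.34 and 0.53 as deposited and 0.23 and 0.41 on a common sum, so the beta ring lay above the median gene either way.

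In IR against WI the immunoproteasome genes separated from the constitutive structural subunits. They did not all do so in IR against sham, where Psmb10 (log2 change 0.54) and Psme2 (0.27) lay within the constitutive range (0.20 to 0.90) as deposited. Nor did they in WI against sham, where Psmb8 (0.27), Psme1 (0.26) and Psme2 (0.38) lay within it (-0.05 to 0.43). Psmb9 and Psmb8 lie 10864 bases apart on chromosome 17, in the class II region of the major histocompatibility complex beside the peptide transporter genes. Psmb9 had an FPKM of 28.7 (15.0 to 42.3) in sham, 51.8 (27.8 to 75.7) in WI and 30.3 (15.9 to 44.6) in IR. It was therefore highest in WI and near its sham level in IR, with a log2 change of 0.83 in WI against sham and -0.75 in IR against WI. Psmb8 stood at 45.0 (24.2 to 65.9), 54.3 (29.0 to 79.6) and 38.6 (20.7 to 56.4), and was the only one of the 5 that was lower in IR than in sham as deposited, with a log2 change of -0.22. Psmb10, which lies apart on chromosome 8 at 105935728 to 105938392, stood at 29.3 (15.7 to 42.9), 57.0 (30.4 to 83.7) and 43.0 (23.0 to 62.9). Its log2 change was 0.94 in WI against sham, the largest of the 41 members, and -0.40 in IR against WI. All of these bounds overlapped.

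The 2 PA28 genes, which lie 2185 bases apart on chromosome 14, differed less between libraries than Psmb9 and Psmb10, and differed alike. Psme1 stood at 81.8, 98.5 and 91.5 in sham, WI and IR, and Psme2 at 79.8, 104 and 96.5. Their log2 changes were 0.26 and 0.38 in WI against sham and -0.11 and -0.10 in IR against WI, and the ratio of Psme1 to Psme2 was 1.03, 0.949 and 0.948. In IR against sham, Psmb9 (0.08), Psmb10 (0.54), Psme1 (0.16) and Psme2 (0.27) were above 0 as deposited, and all 5 genes were below 0 on a common sum, from -0.03 for Psmb10 to -0.78 for Psmb8. The median log2 change of the 5 genes was 0.38 in WI against sham, -0.40 in IR against WI and 0.16 in IR against sham. On a common sum these became 0.34, -0.93 and -0.42. Relative to the median of all genes tested, the difference in IR against WI was -0.43 as deposited and -0.53 on a common sum. In IR against sham it was 0.10 and -0.01, so the immunoproteasome genes as a group lay near the median gene there.

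The ratio of an induced subunit to the constitutive one it replaces is free of library scaling, because both come from the same library, and FPKM is per transcript length. At the chymotrypsin-like site, the ratio of Psmb8 to Psmb5 was 0.588 in sham, 0.602 in WI and 0.284 in IR. At the caspase-like site, the ratio of Psmb9 to Psmb6 was 0.378, 0.547 and 0.271. At the trypsin-like site, the ratio of Psmb10 to Psmb7 was 0.218, 0.373 and 0.217. The WI sample had the highest ratio and the IR sample the lowest at all 3 sites, with little between sham and IR for Psmb10 to Psmb7 and little between sham and WI for Psmb8 to Psmb5. From WI to IR the ratio was multiplied by 0.471, 0.495 and 0.581. Summed over the 3 sites, the induced mRNAs stood at 0.359, 0.483 and 0.251 of the constitutive mRNAs. Within a library, the bounds of the induced and the constitutive gene overlapped for 2 of 3 pairs in sham, for 3 of 3 in WI and for 0 of 3 in IR.

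**Figure D2:**
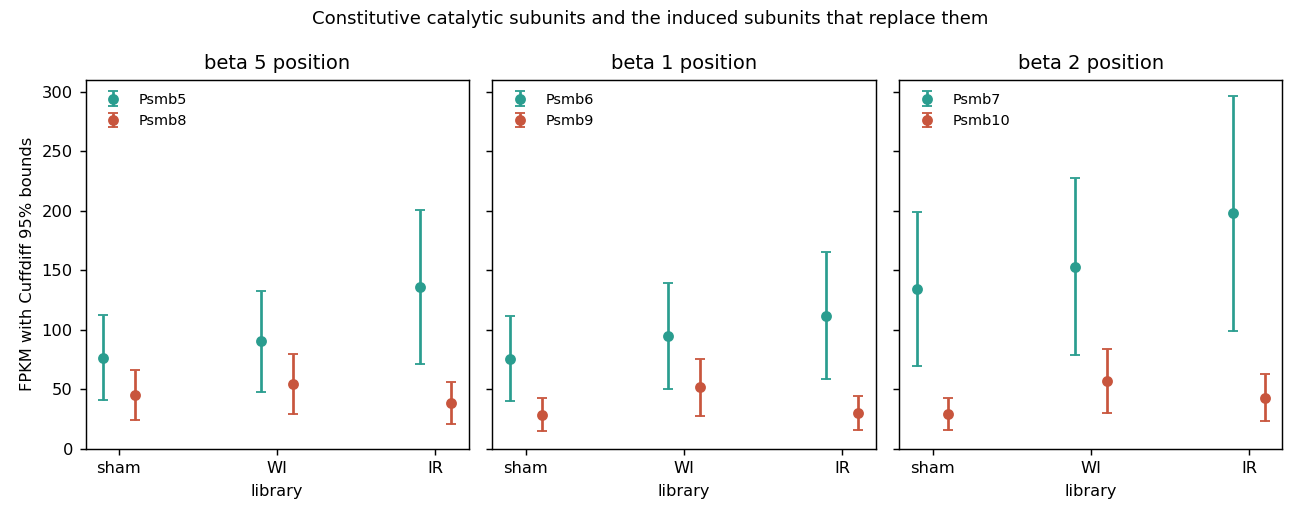
FPKM of the constitutive catalytic subunits Psmb5, Psmb6 and Psmb7 (green) and of the induced subunits Psmb8, Psmb9 and Psmb10 (red) in the sham, WI and IR libraries, with the 95% bounds of Cuffdiff as bars. In the IR library the bounds of each pair lie apart, with ratios of 0.284, 0.271 and 0.217, whereas in the WI library the bounds of all 3 pairs overlap. The ratio within a library does not depend on scaling, but the higher green points in IR than in WI turn lower for Psmb6 and Psmb7 when libraries are divided to a common sum.

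Markers of blood-derived and endothelial cells differed between the libraries as well. In bulk tissue, fewer cells of a type and less RNA per cell cannot be told apart. The summed FPKM of 14 leukocyte markers was 358 in sham, 215 in WI and 558 in IR, with none of the 14 at 0. In WI against sham, where the immunoproteasome genes were higher, 11 of the 11 leukocyte markers tested were lower. The IR sum was carried by the neutrophil genes S100a8 (13.6, 9.17 and 212 in sham, WI and IR) and S100a9 (8.86, 8.07 and 204). The macrophage gene Csf1r (36.2, 20.6 and 8.33), the Kupffer cell gene Clec4f (115, 65.3 and 32.7) and Emr1, which encodes F4/80 (22.5, 9.74 and 5.06), were lower at each step. The macrophage gene Cd68 did not follow them, at 18.5, 12.3 and 18.5. Ptprc, the pan-leukocyte gene, stood at 5.48, 3.78 and 3.27. The summed FPKM of 5 endothelial markers was 52.8, 32.3 and 68.0. The IR sum was carried by Lyve1 (11.2, 2.73 and 33.4), and 3 of the 5, Pecam1, Kdr and Stab2, were lower in IR than in sham. The part of these cell markers in the immunoproteasome values was not tested.

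The activators outside PA28 had low and different levels. Psme3, the nuclear PA28 gamma, stood at 15.8 in sham, 14.2 in WI and 17.0 in IR. Psme4, the PA200 activator of nuclei and sperm, stood at 15.9, 18.0 and 12.3, and its log2 change of -0.52 in IR against WI was the lowest of the 41 members after Psmb9. Psme1 exceeded Psme3 by 5.16, 6.91 and 5.39 times in the 3 samples, so the interferon-inducible activator was the most abundant in each. The lower level of Psme4 in IR than in WI held under all 3 scalings, while the higher value of Psme3 in IR than in WI (0.24) became a lower one (-0.27) on a common sum.

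The 6 ATPases of the 19S base, which unfold the substrate and drive it into the core, were higher in WI than in sham and higher in IR than in WI in 6 of 6 cases as deposited. On a common sum only Psmc4 stayed higher in IR than in WI. Psmc4 stood at 27.6 (14.8 to 40.4) in sham, 35.3 (18.9 to 51.7) in WI and 52.5 (27.8 to 77.2) in IR. It led its group in all 3 comparisons, and its log2 change of 0.90 in IR against sham was the largest of the 41 members, with 0.33 left on a common sum. Psmc6 was last in all 3, with 39.4, 41.6 and 46.9. Of the others, Psmc1 was the most abundant (46.8, 51.1 and 67.4) and Psmc2 the least (23.7, 27.3 and 39.3), while Psmc3 stood at 41.5, 46.3 and 60.6 and Psmc5 at 30.4, 33.9 and 43.5. The highest ATPase was 1.97, 1.87 and 1.71 times the lowest, so the 6 genes lay closest together in IR. Their median log2 change was 0.15 in WI against sham, 0.39 in IR against WI (-0.15 on a common sum) and 0.53 in IR against sham (-0.05 on a common sum).

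The 11 non-ATPase subunits build the lid and the ubiquitin-binding part of the 19S particle. In WI against sham 10 of 11 were higher as deposited and 9 of 11 on a common sum, with a median log2 change of 0.09, the smallest of the structural groups. Psmd2, a scaffold of the base, led at 39.4, 47.7 and 50.5 in sham, WI and IR (0.27). Psmd6, a lid subunit, was the only structural subunit that was lower in WI than in sham as deposited, at 37.4, 36.2 and 49.8 (-0.05). Between WI and IR, 11 of 11 were higher as deposited and 3 of 11 on a common sum, and 10 of 11 lay above the median of all genes tested as deposited. Psmd4, which binds ubiquitin chains, led with 42.0 (22.5 to 61.4), 44.2 (23.7 to 64.7) and 77.0 (40.3 to 114), and its log2 change of 0.79 was the largest of all members in IR against WI, with 0.25 left on a common sum. Psmd8, a lid subunit, followed with 57.95, 61.9 and 95.8 (0.62, and 0.08 on a common sum). Psmd14, the enzyme that cuts ubiquitin off the substrate, stood at 17.3, 20.9 and 31.6 (0.57, and 0.05 on a common sum). These 3 were the subunits of the group that stayed higher in IR than in WI under every scaling.

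Psmd1, the other base scaffold, showed next to no difference in IR against WI, at 24.0, 27.5 and 27.8 (0.01). The remaining lid subunits held middle places. Psmd3 stood at 29.3, 34.2 and 49.2 in sham, WI and IR, and Psmd11 at 24.6, 27.7 and 39.2. Psmd7 stood at 32.4, 34.6 and 45.5, Psmd12 at 27.6, 28.9 and 36.9, and Psmd13 at 33.0, 33.3 and 43.7. In these 5 the step from WI to IR was larger than that from sham to WI as deposited, whereas on a common sum all 5 were lower in IR than in WI. The 20S core mRNAs stayed more abundant per length than the 19S ones, with a median of 78.1, 92.4 and 114 for the 14 constitutive core genes against 32.4, 34.6 and 46.9 for the 17 structural 19S genes, a ratio of 2.41, 2.67 and 2.44. Taking Psmc and Psmd genes together, as in the rule, the 20 genes had a median log2 change of 0.14 in WI against sham, 0.38 in IR against WI (-0.14 on a common sum) and 0.49 in IR against sham (-0.08 on a common sum).

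Psmd5, Psmd9 and Psmd10, which are among these 20 genes, are not subunits of the finished particle but chaperones that help assemble its base. Psmd9 stood at 14.7 in sham, 10.9 in WI and 14.3 in IR, and its log2 change of -0.40 was the lowest of all members in WI against sham. Psmd5 stood at 12.5, 14.4 and 12.4. Psmd10, also called gankyrin, hardly differed, at 6.76, 7.22 and 6.93. None of the 3 followed the order of the structural subunits, and in IR against sham their log2 changes lay between -0.04 and 0.03 as deposited and between -0.57 and -0.46 on a common sum.

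**Figure D3:**
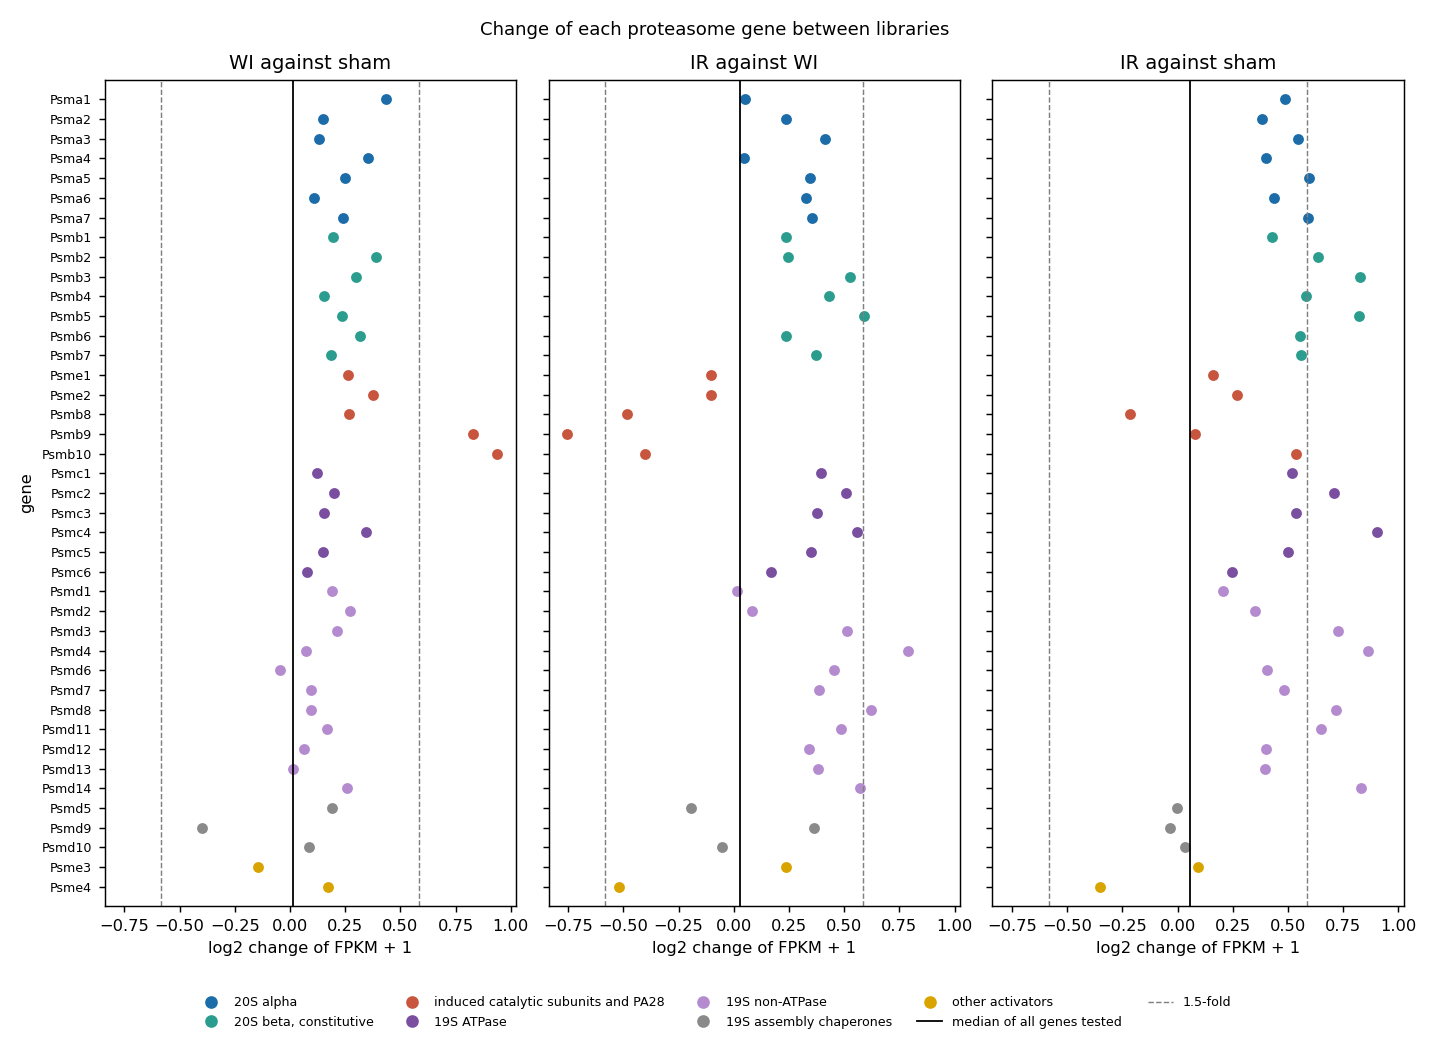
Log2 change of FPKM + 1 of each of the 41 members in WI against sham, IR against WI and IR against sham as deposited, coloured by role, with the median of all genes tested as a solid line and 1.5-fold as dashed lines. In the middle panel the 31 constitutive structural subunits lie above 0 (5 of 31 do when libraries are divided to a common sum) and the 5 induced and PA28 genes below 0 under every scaling, from -0.75 to -0.10 as deposited. Of all genes tested, 52.4% lie above 0 in this comparison as deposited and 17.5% on a common sum.

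Members were also counted by a fixed size of change. A difference of at least 1.5-fold in FPKM + 1 was counted as a call. In WI against sham 2 members were higher, Psmb10 and Psmb9, beside 3.14% of all genes tested, and 0 were lower, beside 4.27%. These 2 were also among the 0.908% and 1.20% of genes tested with the largest increase. In IR against WI 3 were higher, Psmb5, Psmd4 and Psmd8, beside 12.4% of genes, and 1 was lower, Psmb9, beside 7.4%. The 3 that were higher are 7.32% of the members, below the share among all genes. On a common sum 0 were higher, beside 579 of the 10792 genes tested, and 7 were lower, beside 3390. These 7 are a smaller share than that among all genes, and all 5 immunoproteasome genes are among them. In IR against sham 12 members were higher, beside 14.3% of genes: Psma5, Psma7, Psmb2, Psmb3, Psmb5, Psmc2, Psmc4, Psmd3, Psmd4, Psmd8, Psmd11 and Psmd14. They are 29.3% of the members and they all belong to the constitutive structure, and all 12 stayed above 0 on a common sum although none then passed 1.5-fold. None was lower, beside 9.49%. No member reached 2-fold as deposited, beside 1.85%, 7.21% and 7.5% of genes in the 3 comparisons in the same order. On a common sum 3 members were at least 2-fold lower in IR than in WI: Psmb9 (-1.28), Psme4 (-1.02) and Psmb8 (-1.01). A similar share of all genes tested was lower by that size, 753 of 10792. No member had bounds that lay apart between libraries, beside 0.676%, 3.61% and 3.82%.

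The proteins that build or inhibit the 20S core were examined beside it. Pomp, the chaperone that closes the beta ring, had an FPKM of 111 in sham, 147 in WI and 180 in IR. The pairing chaperones Psmg3 (9.31, 11.1 and 14.9) and Psmg4 (14.1, 17.3 and 22.2) held the same order of libraries as deposited. Of the 6 genes of this list, 4 were at least 1.5-fold higher in IR than in sham as deposited, beside 14.3% of all genes tested, and 0 were lower by that size. On a common sum 0 of 6 passed 1.5-fold, 4 were above 0 and 2 below it (Psmg1 at -0.29 and Psmf1 at -0.34). All 6 lay above the median of all genes tested in that comparison both as deposited and on a common sum. In IR against WI 5 of 6 were higher as deposited and 0 of 6 on a common sum, beside 52.4% and 17.5% of all genes tested.

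Genes that act with the 19S particle were counted in the same way. Of 16 symbols listed, 13 were in the files and tested. In WI against sham 0 of 13 passed 1.5-fold in either direction, beside 3.14% of all genes tested higher and 4.27% lower. Between WI and IR 3 did so, all higher, beside 12.4% higher and 7.4% lower. On a common sum all 3 stayed above 0 but only Zfand2a passed 1.5-fold, beside 579 of the 10792 genes tested. By that size 2 were then lower, AI314180 (-0.90) and Ubqln4 (-0.70), beside 3390. Zfand2a, a stress-induced zinc finger protein that binds the 19S particle, stood at 2.91, 2.37 and 7.39 in sham, WI and IR. The ubiquitin receptor gene Adrm1 stood at 35.4, 33.8 and 57.9. Zfand5, a further zinc finger protein, stood at 7.73, 6.50 and 11.2. Zfand2a and Adrm1 were also more than 1.5-fold higher in IR than in sham as deposited, beside 14.3% of all genes tested. On a common sum only Zfand2a was, and AI314180 was lower by that size (-0.96).

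Ubb, a stress-responsive polyubiquitin gene, was highest in IR under every scaling. It stood at 388 in sham, 345 in WI and 895 in IR. Its log2 change was 1.37 in IR against WI, and 0.82 on a common sum. Rps27a, which encodes ubiquitin joined to a ribosomal protein, stood at 349, 316 and 484, and was at least 1.5-fold higher in IR than in WI as deposited (log2 change 0.61), but not on a common sum (0.07).

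The regulators did not differ alike. Nfe2l1, the factor that restores proteasome genes when the protease is inhibited, stood at 28.5, 29.4 and 30.8 in sham, WI and IR. Nfe2l2 stood at 14.2, 20.4 and 23.1, and was at least 1.5-fold higher in IR than in sham, with a log2 change of 0.67 as deposited and 0.12 on a common sum. Irf1, which drives the induced subunits, stood at 8.06, 17.0 and 15.3. Its log2 change was 0.99 in WI against sham (0.96 on a common sum) and 0.85 in IR against sham (0.31 on a common sum).

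Interferon gamma response genes were higher in WI than in sham in 7 of 7 cases, 4 of them by at least 1.5-fold, with a median log2 change of 1.11 (1.07 on a common sum) beside 0.02 for all genes tested. The immunity-related GTPase genes Iigp1 (95.3, 318 and 132 in sham, WI and IR) and Igtp (21.5, 71.2 and 25.1) peaked in WI, as the immunoproteasome genes did, and Igtp was the only gene of this list with bounds that lay apart between WI and sham. The third largest was the chemokine gene Cxcl10, which stood at 3.76, 10.4 and 22.6, with bounds apart between IR and sham. Irgm1, a further GTPase, stayed high, at 18.8, 41.7 and 43.4. In IR against WI 3 of 7 were at least 1.5-fold lower (Igtp, Iigp1 and Gbp3, the last at 9.58, 14.8 and 7.12), beside 7.4% of all genes tested. By that size 1, Cxcl10, was higher (log2 change 1.06, and 0.54 on a common sum), beside 12.4%. Ifng, the cytokine itself, was below an FPKM of 1 in all 3 samples, at 0.0362, 0.0987 and 0.135.

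Peptide loading genes act after the immunoproteasome, by carrying its peptides to class I molecules. In WI against sham 9 of 10 were higher as deposited and 8 of 10 on a common sum, beside 52.5% and 47.9% of all genes tested. As deposited 2 were higher by at least 1.5-fold, beside 3.14%. These 2 were the endoplasmic reticulum chaperones Calr (147, 270 and 244 in sham, WI and IR) and Pdia3 (97.9, 150 and 121), which also fold proteins outside this pathway. On a common sum only Calr still passed. In IR against WI 7 of 10 were lower as deposited and all 10 on a common sum. Of the 10792 genes tested, 5130 were lower as deposited and 8898 on a common sum. Above the median of all genes tested lay 2 of 10 as deposited and 1 of 10 on a common sum. The peptide trimming enzyme gene Erap1 (29.9, 30.4 and 15.7) and the tapasin gene Tapbp (37.3, 47.5 and 29.3) were lower by at least 1.5-fold as deposited, beside 7.4%. In IR against sham Calr was higher (0.72, and 0.14 on a common sum) and Erap1 lower by that size. The transporter genes Tap1 (12.7, 16.3 and 11.5) and Tap2 (10.3, 12.2 and 11.9), neighbours of Psmb8 and Psmb9, also had their highest level in WI. So did 27.0% of all genes tested. The genes of the class I molecules themselves did not as deposited. B2m stood at 2097, 2484 and 2638, H2-K1 at 1044, 1102 and 1111, and H2-D1 at 546, 515 and 580.

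**Figure D4:**
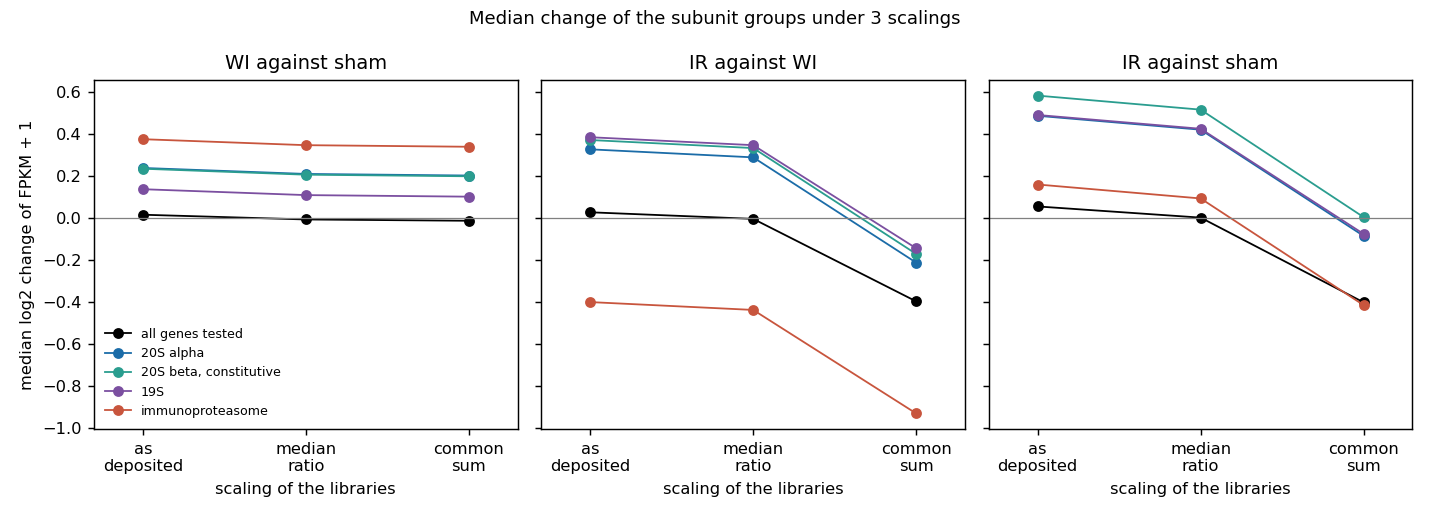
Median log2 change of FPKM + 1 of the subunit groups and of all genes tested (black) under the deposited values, a median-ratio scaling and a common sum, for WI against sham, IR against WI and IR against sham. In the middle panel the constitutive groups stay above the black line and the immunoproteasome below it under all 3 scalings, whereas the constitutive medians turn from between 0.33 and 0.38 as deposited to between -0.21 and -0.14 on a common sum.

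Several values rest on loci that hold other genes. Psma6 was given one locus with Nfkbia, Ppp2r3c and others, and its bounds were the widest of the alpha ring (24.2 to 129 in sham). Psma3, Psma4, Psmb5, Psmd1 and Psme1 also shared a locus with another gene, which was at an FPKM of less than 1 for the first 4, whereas Emc9, the gene beside Psme1, stood at 13.6, 17.9 and 19.5. Whether the fragments were counted by strand was not stated, so reads of such overlapping genes could not be told apart. The members' bounds corresponded to a median coefficient of variation of 23.3%, 23.4% and 23.7% in the 3 libraries. With bounds of that width, differences of the size seen among the members did not separate 2 libraries for any single gene.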

How the data were processed

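Liver mRNA was sequenced in 3 libraries (sham, WI and IR, 1 each). Per the labels and the study's methods, the authors mapped reads to mm10 with TopHat2 2.0.9 and computed expression with Cufflinks 2.0.2 (Cuffdiff). The deposited values are FPKM per gene, normalised by the authors to transcript length and mapped fragments, with 95% bounds and a status. Counts are not among the columns, and the depth behind each gene is therefore unknown. For whole libraries, the study reported fewer uniquely aligned read pairs in IR than in sham or WI, and a smaller share of pairs aligned. Over 1266 genes with FPKM below 0.15, the commonest ratio of a low value to its sham value was 0.907 in WI and 1.26 in IR (129 and 134 genes within 2% of it), as when 1 fragment is worth less or more in that library.

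Files were joined by gene and locus. Starts in the files count from 0 and were raised by 1. Genes that reached an FPKM of 1 in any library were kept, and changes were taken as log2(FPKM + 1), which understates the change of low genes. As 1 library per group leaves no residual degrees of freedom, no test was run. Group medians and counts past 1.5-fold stand beside those of all genes tested. Every member was accounted for, with values for the induced genes, the subunits they replace, the activators and, in each other role, the members with the largest and the smallest change in each comparison. Further subunits were added after their values were seen. In each related list, members past 1.5-fold were named, up to 3 per comparison, with Nfe2l1, Nfe2l2 and Irf1 always named. Tap1, Tap2, Irgm1, Ifng, Cxcl9, B2m, H2-K1, H2-D1, AI314180 and Ubqln4 were added after their values were seen. Some listed genes are not reported here. The members and lists were chosen with earlier results of these data known, and the motifs after the values were seen. Alternatives were other pseudocounts, filters on low values, folds and library scalings. Tables were made in pandas 2.3.3 with numpy 2.4.6 under Python 3.11.15, and plots in matplotlib 3.10.9.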

Additional observations from a re-analysis of the deposited data

How the results depend on the processing

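Pseudocounts of 0.1 and 0.01, no pseudocount, no filter on low values and an FPKM of at least 1 in all libraries moved no median by more than 0.1 on the log2 scale. A filter at an FPKM of 5 changed which genes the members were set against, and in IR against sham the medians less that of all genes became 0.32 for all members, 0.32 for the alpha ring, 0.41 for the constitutive beta ring, -0.011 for the immunoproteasome and 0.32 for 19S. Division to a common sum (TPM) moved both comparisons of the IR library. In IR against WI the medians became -0.19 for all members, -0.21 for alpha, -0.17 for beta, -0.93 for the immunoproteasome and -0.14 for 19S, or 0.21, 0.18, 0.23, -0.53 and 0.25 less the median of all genes. In IR against sham they became -0.086, -0.086, 0.0040, -0.42 and -0.076, or 0.32, 0.32, 0.41, -0.013 and 0.33. The counts of members past 1.5-fold became 0 higher and 7 lower in IR against WI, beside 579 and 3390 of the 10792 genes tested. In IR against sham the counts became 0 higher and 2 lower, beside 511 and 3569. Which scaling is nearer to the true amounts was not tested. Under the median-ratio scaling the members higher by 1.5-fold went from 3 to 1 in IR against WI and from 12 to 9 in IR against sham. The shares of all genes tested higher by that size under that scaling were 11.5% and 12.1%. At a limit of 25% instead of 50% above equal the counts of members higher and lower were 7 and 1 in WI against sham, 23 and 4 in IR against WI, and 30 and 1 in IR against sham. The shares of all genes tested past this lower limit are not given here, so these counts have no background beside them. At 2-fold, and by bounds that lie apart, the counts of members were 0 in every comparison as deposited. On a common sum 3 members were at least 2-fold lower in IR against WI, beside 753 of the 10792 genes tested. No paired analysis was possible because each condition has 1 library. No library could be left out for the same reason.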
